A study of Homo sapiens with 6 samples.

Results

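The E2F and retinoblastoma family is described here across 6 RNA libraries of ME180, a cell line from a human cervical cancer with epithelial morphology. The genes were taken by name: E2F1, E2F2, E2F3, E2F4, E2F7, E2F8, TFDP1, RB1, RBL1 and RBL2, which are 10 of the 58302 genes in the expression table. In 3 libraries the cells had been transfected with an siRNA against SGK1 (siSGK1), a serine/threonine kinase related to AKT, and in 3 with a control siRNA (siControl), each for 48 h. The libraries of each group are numbered 2, 3 and 4, and the series describes them as biological repeats of this 1 cell line. PolyA RNA was sequenced, and levels are given as FPKM, which sets a gene's fragments against its length and the size of the library.

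E2F proteins are transcription factors that bind DNA as dimers with a DP partner and switch on the genes of DNA replication at the G1/S transition. The pocket proteins, encoded by RB1, RBL1 (p107) and RBL2 (p130), bind E2Fs and hold their targets silent until cyclin-dependent kinases phosphorylate them. E2F1, E2F2 and E2F3 are classed as activators, E2F4 as a repressor that works with p107 and p130, and E2F7 and E2F8 as repressors that need neither a DP partner nor a pocket protein. RBL1 and RBL2 also join E2F4 and the MuvB core in the DREAM complex, which silences cell cycle genes in resting cells. Cervical cancer lines such as ME180 carry human papillomavirus, whose E7 protein inactivates pocket proteins. Viral transcripts were not analysed here.

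The promoters of several of these genes contain E2F sites, through which E2Fs act on their own family. E2F words were sought on both strands in the RefSeq promoters of build GRCh38.p14, each running from 250 bases before to 50 after an annotated start. The words were TTTCCCGC, TTTCGCGC, TTTGCCGC and TTTGGCGC. Of the 10 genes, 9 had an entry, and 5 of these 9 held an E2F word: E2F1, RBL1, TFDP1, E2F2 and E2F3. E2F8 had no entry. The entry for RB1 starts inside the gene, far from its 5′ end, so the RB1 promoter itself was not searched. For comparison, 1164 of all 35116 promoters (3.31%) and 584 of 8429 tested genes with an entry (6.93%) held an E2F word.

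These 5 promoters are shown because 4 of them belong to genes called as changed and the fifth, E2F3, to a gene that was not. Each line gives 150 bases before to 50 after the start, 5′ to 3′ on the gene's strand, with E2F words in capitals (a word on the other strand appears as its reverse complement). The windows are chr20:33686336-33686535 (minus strand) for E2F1, chr20:37095948-37096147 (minus) for RBL1, chr13:113584603-113584802 (plus) for TFDP1, chr1:23531184-23531383 (minus) for E2F2 and chr6:20401729-20401928 (plus) for E2F3.
E2F1: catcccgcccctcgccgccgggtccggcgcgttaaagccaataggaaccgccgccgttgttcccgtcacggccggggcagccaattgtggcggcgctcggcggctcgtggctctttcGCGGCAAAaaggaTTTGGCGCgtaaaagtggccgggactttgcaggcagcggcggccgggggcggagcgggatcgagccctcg
RBL1: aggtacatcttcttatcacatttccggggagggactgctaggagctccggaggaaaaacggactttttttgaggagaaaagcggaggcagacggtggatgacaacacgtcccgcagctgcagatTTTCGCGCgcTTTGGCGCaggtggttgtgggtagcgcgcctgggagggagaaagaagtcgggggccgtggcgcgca
TFDP1: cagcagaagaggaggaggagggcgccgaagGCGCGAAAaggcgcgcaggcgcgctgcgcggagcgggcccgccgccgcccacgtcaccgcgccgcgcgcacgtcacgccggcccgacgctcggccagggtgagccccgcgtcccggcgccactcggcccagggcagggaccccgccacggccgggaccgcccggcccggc
E2F2: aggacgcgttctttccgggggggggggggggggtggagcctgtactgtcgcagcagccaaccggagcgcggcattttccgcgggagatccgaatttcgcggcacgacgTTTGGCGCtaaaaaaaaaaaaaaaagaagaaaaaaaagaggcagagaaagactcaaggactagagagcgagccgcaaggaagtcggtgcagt
E2F3: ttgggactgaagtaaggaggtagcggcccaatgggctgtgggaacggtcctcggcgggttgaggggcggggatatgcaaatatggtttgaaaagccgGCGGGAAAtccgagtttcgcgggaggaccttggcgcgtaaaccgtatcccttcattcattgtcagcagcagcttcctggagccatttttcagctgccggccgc

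In E2F1 and RBL1 a pair of words lies within 40 bases before the start. The E2F1 words begin at bases -33 and -20, and those of RBL1 at -26 and -16. The single words of E2F2, E2F3 and TFDP1 begin at -42, -53 and -120. Words of the cell cycle homology region (CHR), TTTGAA and TTCGAA, through which MuvB complexes bind, were found in 2 of the 9 genes, E2F3 and RBL2. A match is a run of letters, and binding was not measured.

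**Figure D1:**
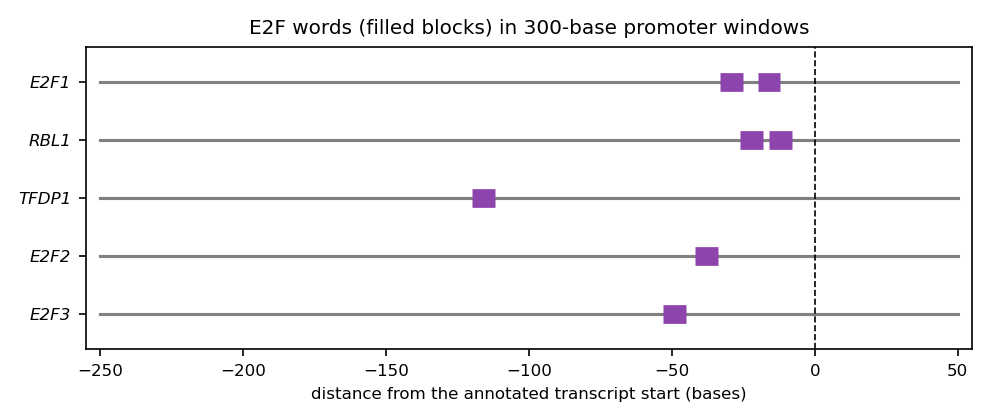
Positions of E2F words in the promoter windows of 5 family genes. The x axis is the distance in bases from the annotated transcript start (dashed line), and each filled block is 1 word on either strand. E2F1 and RBL1 each have 2 words close to the start, and TFDP1 has 1 word that begins at base -120.

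The siSGK1 libraries held 28405647 to 35242643 recovered reads and the siControl libraries 27262794 to 27874948. SGK1 averaged 1.70 ± 0.12 FPKM in siSGK1 and 4.12 ± 0.19 FPKM in siControl (SD, n = 3 each), with p = 0.1 in an exact permutation test (two-sided), the lowest value open to 3 against 3 libraries. The epithelial markers fixed for the line (KRT5, KRT14, KRT17, TP63, EPCAM and CDH1, with CDKN2A) were all present. Their summed level was 4773 to 5579 FPKM in siSGK1 and 7616 to 8217 FPKM in siControl, most of it keratin. KRT5 averaged 2920 FPKM in siSGK1 and 3961 in siControl, KRT14 541 and 1388, and KRT17 1512 and 2258. In the test described below these 3 were called lower, KRT5 not with quantile normalization or without a level filter. TP63, EPCAM, CDH1 and CDKN2A were not called. Of 9 markers of fibroblasts, leukocytes and endothelium, 1 (COL1A1) averaged at least 1 FPKM over all 6 libraries, and PECAM1 had no reads. VWF, an endothelial marker, averaged 0.53 FPKM in siSGK1 and 1.34 FPKM in siControl. Their summed level was 5.62 to 6.46 FPKM in siSGK1 and 6.28 to 6.59 FPKM in siControl.

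All 10 family genes passed the level filter (a mean of at least 1 FPKM) and were tested with limma among 11945 genes. A gene was called at a Benjamini-Hochberg adjusted p below 0.05 over all tested genes. Of the family, 4 were called higher in siSGK1 (E2F1, E2F4, TFDP1 and RBL1), where 17.9% of all tested genes were called higher, and 1 was called lower (E2F2), where 22.7% were. The 5 calls in 10 genes stand beside 40.6% called in either direction among all tested genes, so the share of called genes lies near the background. The 2 groups did not overlap in FPKM for 7 of the 10, beside 53.4% of all tested genes. The changes were small: the median log2 change of the family was 0.13, against -0.006 for all tested genes.

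**Figure D2:**
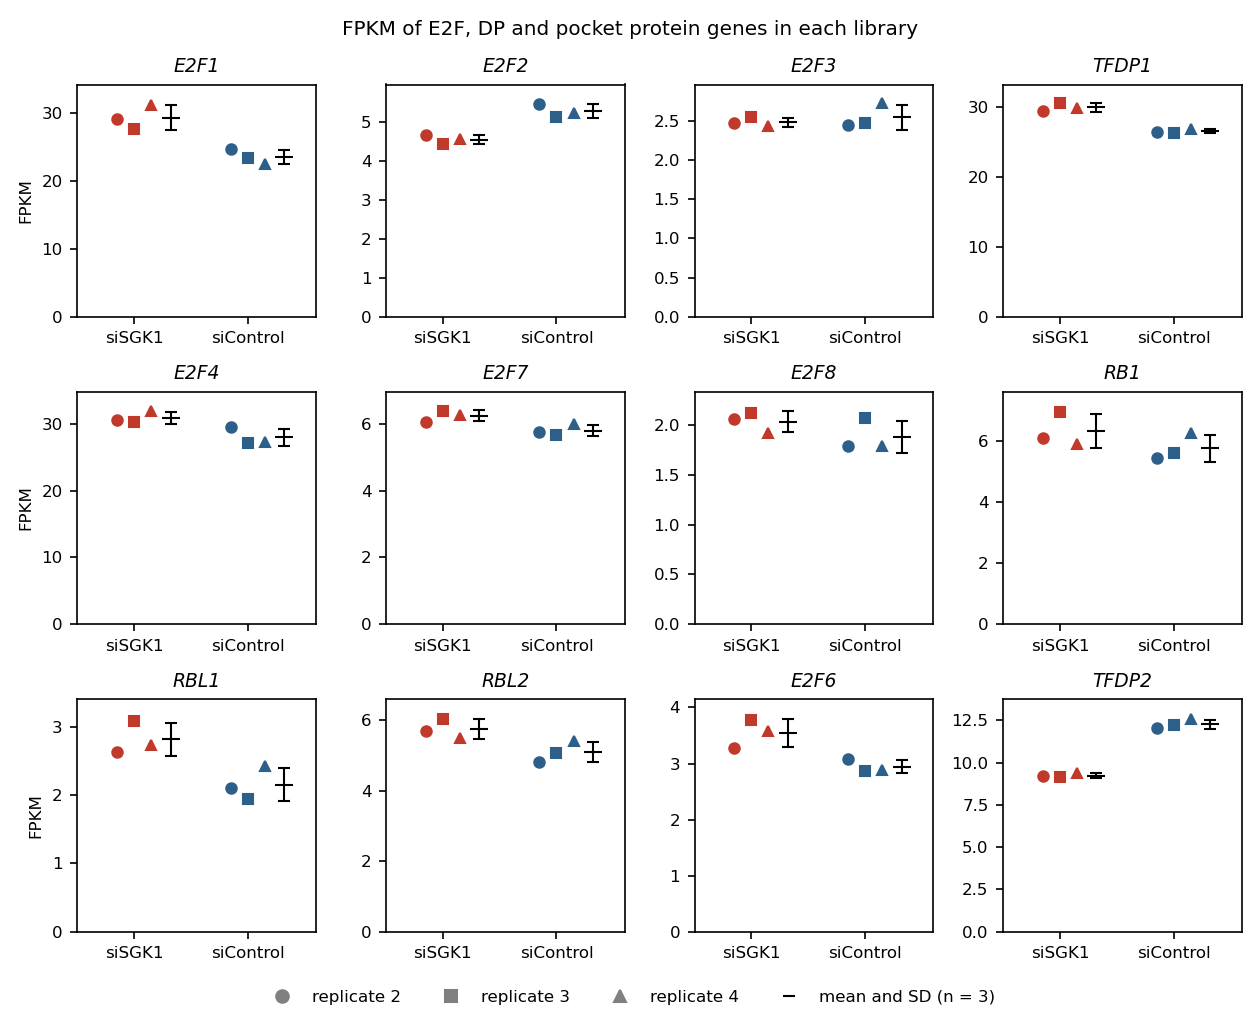
FPKM in each library (y axis, from 0) for the 10 family genes and their relatives E2F6 and TFDP2, with the 3 siSGK1 libraries left and the 3 siControl libraries right. Marker shapes give the replicate number, and bars are the mean and SD (n = 3). E2F1, E2F4, E2F6, E2F7, TFDP1, RBL1 and RBL2 lie higher in every siSGK1 library than in any siControl library, and E2F2 and TFDP2 lower. Of these, E2F7 and RBL2 were not called.

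The family spans a wide range of levels. In siSGK1 the most abundant transcripts were E2F4 (30.9 ± 0.9 FPKM), TFDP1 (30.0 ± 0.6 FPKM) and E2F1 (29.3 ± 1.8 FPKM), whose libraries overlapped. In siControl the same 3 genes led, at 28.0 ± 1.3 FPKM for E2F4, 26.6 ± 0.3 FPKM for TFDP1 and 23.5 ± 1.1 FPKM for E2F1 (SD, n = 3 each), and there each lay above the next without overlap. RB1, E2F7, RBL2 and E2F2 followed in both groups, between 4.42 and 6.94 FPKM in siSGK1 libraries and between 4.83 and 6.24 FPKM in siControl libraries. Within this band RB1 and E2F7 overlapped in both groups. In siSGK1 they were followed by RBL2 and then E2F2, where E2F7, RBL2 and E2F2 did not overlap, whereas in siControl RB1 overlapped E2F2 and E2F2 overlapped RBL2. RBL1, E2F3 and E2F8 were lowest in both groups, at 1.92 to 3.10 FPKM in siSGK1 libraries and 1.79 to 2.73 FPKM in siControl libraries. RBL1 stood above E2F3 in every siSGK1 library and below it in every siControl library. E2F1 and E2F4 together made up 75.7% ± 1.0 of the summed FPKM of E2F1 to E2F8 in siSGK1 and 73.1% ± 0.8 in siControl (SD, n = 3 each).

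Among the activators E2F1 rose, E2F2 fell and E2F3 was not called. E2F1 (ENSG00000101412, chromosome 20, 33675683 to 33686404, minus strand), an E2F that can drive both S phase entry and apoptosis, measured 29.1, 27.6 and 31.2 FPKM in siSGK1 libraries 2, 3 and 4, against 24.7, 23.5 and 22.5 FPKM in the siControl libraries. The lowest siSGK1 library lay above the highest siControl library. Its log2 change on the log2(FPKM + 0.5) scale was 0.31 (SE 0.06, adjusted p = 0.00332). It stayed called in all 15 alternative settings, at adjusted p between 6.71e-05 and 0.0204. E2F1 drew 2142, 2291 and 2864 reads in siSGK1 and 1620, 1523 and 1518 reads in siControl.

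E2F2, the activator best known from blood cells (ENSG00000007968, chromosome 1, 23506430 to 23531220, minus strand), measured 4.65, 4.42 and 4.55 FPKM in siSGK1, against 5.46, 5.11 and 5.23 FPKM in siControl. All siSGK1 libraries were lower than all siControl libraries. On the log2 scale E2F2 fell by 0.19 (SE 0.05, adjusted p = 0.0179). E2F2 missed the threshold when siSGK1 replicate 4 (adjusted p = 0.0523) or siControl replicate 2 (adjusted p = 0.0597) was left out. Total-read scaling (log2 change -0.067) and TPM scaling (log2 change -0.0089) ended the call as well, and adjusted p ranged from 0.0174 to 0.899 over its alternatives. E2F3 (ENSG00000112242, chromosome 6, 20401906 to 20493715, plus strand), an activator with a role in normal proliferation, measured 2.47, 2.55 and 2.44 FPKM in siSGK1 and 2.44, 2.47 and 2.73 FPKM in siControl. These groups overlapped, and the log2 change was -0.03 (SE 0.07, adjusted p = 0.754).

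The ratio of 2 genes within a library does not depend on how libraries are scaled. The ratio of E2F1 to E2F2 was 6.25, 6.25 and 6.86 in siSGK1 and 4.52, 4.59 and 4.30 in siControl, and the groups did not overlap. This ratio and the other ratios below were chosen after the values were seen and carry no test.

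The DP subunits moved in opposite directions. TFDP1 (ENSG00000198176, chromosome 13, 113584721 to 113641470, plus strand) encodes DP1, the partner that most E2Fs need for tight DNA binding. It measured 29.4, 30.6 and 29.9 FPKM in siSGK1, against 26.4, 26.4 and 26.9 FPKM in siControl, with no overlap. The log2 change of TFDP1 was 0.17 (SE 0.04, adjusted p = 0.0103), and it was called in every alternative setting (adjusted p between 0.000372 and 0.0496). TFDP2, which encodes the alternative partner DP2 and is outside the 10 genes (ENSG00000114126, chromosome 3, 141944428 to 142149544, minus strand), measured 9.18, 9.12 and 9.38 FPKM in siSGK1, against 12.0, 12.2 and 12.5 FPKM in siControl. It fell by 0.39 on the log2 scale (SE 0.04, adjusted p = 0.000272), and it too was called in every alternative (adjusted p between 3.65e-07 and 0.00805).

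As deposited, the summed FPKM of TFDP1 and TFDP2 was nearly equal, 39.2 ± 0.6 in siSGK1 and 38.8 ± 0.6 in siControl (SD, n = 3 each). TFDP1 made up 76.2%, 77.0% and 76.1% of that sum in the siSGK1 libraries, against 68.7%, 68.4% and 68.2% in the siControl libraries. The ratio of TFDP1 to TFDP2 was accordingly 3.25 ± 0.09 in siSGK1 and 2.17 ± 0.02 in siControl. Unlike the ratio and the share, the sum depends on how libraries are scaled, and its near equality is that of the deposited scaling. The log2 changes of TFDP1 and TFDP2 were 0.37 and -0.20 with TPM scaling, and 0.31 and -0.26 with total-read scaling. TFDP3, a testis gene, had no reads in any library.

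**Figure D3:**
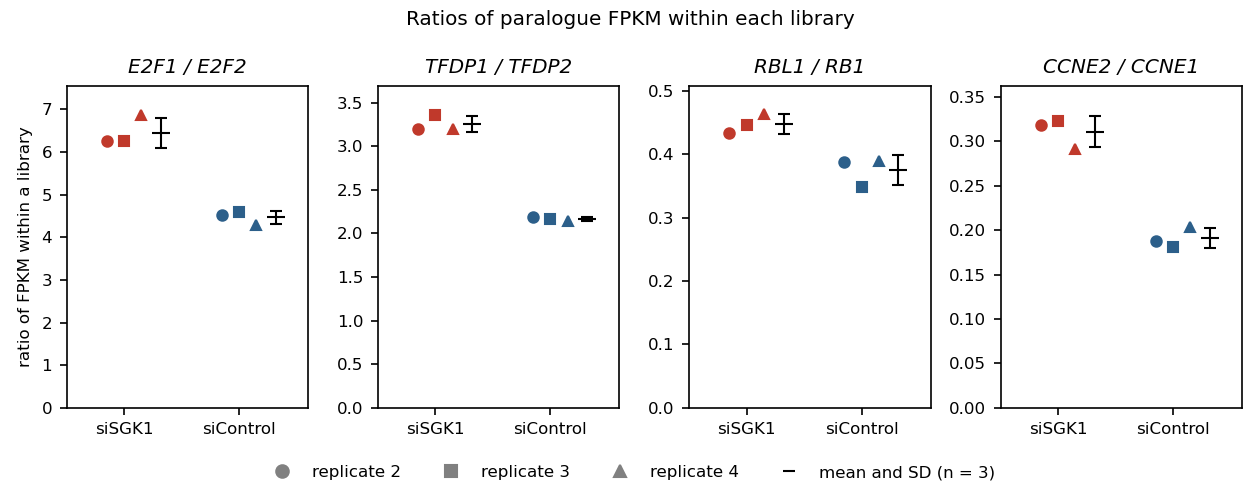
Ratio of FPKM of 2 related genes within each library (y axis, from 0) for E2F1 to E2F2, TFDP1 to TFDP2, RBL1 to RB1, and CCNE2 to CCNE1. Marker shapes give the replicate number, and bars are the mean and SD (n = 3). All 4 ratios are higher in every siSGK1 library than in any siControl library.

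Of the repressor E2Fs, E2F4 rose by a small margin and E2F7 and E2F8 were not called. E2F4 (ENSG00000205250, chromosome 16, 67192169 to 67198918, plus strand), the main E2F of the DREAM complex, measured 30.6, 30.2 and 31.9 FPKM in siSGK1, against 29.5, 27.2 and 27.3 FPKM in siControl. The groups did not overlap, but siControl replicate 2 lay close to the siSGK1 libraries. E2F4 changed by 0.14 on the log2 scale (SE 0.05, adjusted p = 0.0458). Leaving out siSGK1 replicate 2 (adjusted p = 0.0839), siSGK1 replicate 4 (adjusted p = 0.153), siControl replicate 3 (adjusted p = 0.163) or siControl replicate 4 (adjusted p = 0.121) ended the call, as did testing without a level filter (adjusted p = 0.0915). Adjusted p ranged from 0.000385 to 0.163 over all its alternatives.

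E2F7 (ENSG00000165891, chromosome 12, 77021247 to 77065580, minus strand), which represses E2F targets late in the cell cycle, measured 6.06, 6.39 and 6.26 FPKM in siSGK1 and 5.74, 5.66 and 5.98 FPKM in siControl. The groups did not overlap, yet the log2 change of 0.10 (SE 0.05) did not pass the test (adjusted p = 0.151). E2F8 (ENSG00000129173, chromosome 11, 19224063 to 19241620, minus strand), its close relative, measured 2.06, 2.12 and 1.92 FPKM in siSGK1 and 1.79, 2.07 and 1.79 FPKM in siControl, and the groups overlapped (log2 change 0.09, SE 0.08, adjusted p = 0.378). With 194 to 291 reads a library, E2F8 was the family gene with the fewest reads. E2F6, a repressor that works without pocket proteins and is outside the 10 genes, averaged 3.54 ± 0.25 FPKM in siSGK1 and 2.94 ± 0.11 FPKM in siControl (SD, n = 3 each). Its log2 change was 0.23 (adjusted p = 0.0237). Leaving out siSGK1 replicate 3 (adjusted p = 0.0658), siSGK1 replicate 4 (adjusted p = 0.0704), siControl replicate 3 (adjusted p = 0.0787) or siControl replicate 4 (adjusted p = 0.0601) ended that call. The E2F6 call was also lost without a level filter (adjusted p = 0.069). E2F5 lay below the level filter, at 0.42 to 0.49 FPKM in siSGK1 libraries and 0.39 to 0.55 FPKM in siControl libraries.

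Among the pocket proteins RBL1 rose, while RBL2 and RB1 were not called. RBL1 (ENSG00000080839, chromosome 20, 36996349 to 37095995, minus strand) encodes p107, the pocket protein whose own gene is an E2F target. It measured 2.63, 3.10 and 2.74 FPKM in siSGK1, against 2.11, 1.94 and 2.43 FPKM in siControl. Every siSGK1 library lay above every siControl library, and the log2 change of 0.32 (SE 0.09, adjusted p = 0.0188) lay close to that of E2F1. Without siSGK1 replicate 3 (adjusted p = 0.0627), siControl replicate 2 (adjusted p = 0.0513) or siControl replicate 3 (adjusted p = 0.0672) RBL1 was not called, nor without a level filter (adjusted p = 0.0810). Over all its alternatives adjusted p ranged from 0.00157 to 0.081.

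RBL2 (ENSG00000103479, chromosome 16, 53433977 to 53491649, plus strand) encodes p130, the pocket protein of resting cells. It measured 5.70, 6.04 and 5.49 FPKM in siSGK1 and 4.83, 5.07 and 5.40 FPKM in siControl. The groups did not overlap, but the log2 change of 0.16 (SE 0.06, adjusted p = 0.0694) missed the threshold. It passed without siControl replicate 4 (adjusted p = 0.0483) and with limma-voom on the recovered reads (adjusted p = 0.0303), in a range of 0.00486 to 0.192 over its alternatives. RBL2 shares 610 of its 7320 exon bases with AKTIP on the opposite strand, and since the strand setting of the counting is not given in the sources used here, its value is uncertain to that extent. AKTIP measured 2.70, 3.06 and 2.71 FPKM in siSGK1, against 3.97, 3.84 and 3.99 FPKM in siControl, the opposite direction.

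RB1 (ENSG00000139687, chromosome 13, 48303751 to 48481986, plus strand), the retinoblastoma tumour suppressor, measured 6.07, 6.94 and 5.90 FPKM in siSGK1 and 5.42, 5.58 and 6.24 FPKM in siControl. These groups overlapped, and the log2 change was 0.12 (SE 0.08, adjusted p = 0.229). It was 0.06 without siSGK1 replicate 3 and 0.18 without siControl replicate 4, not called in either fit. The ratio of RBL1 to RB1 was 0.43, 0.45 and 0.46 in siSGK1, against 0.39, 0.35 and 0.39 in siControl. The ratio of RBL2 to RB1 overlapped between groups, at 0.91 ± 0.04 in siSGK1 and 0.89 ± 0.02 in siControl (SD, n = 3 each). These values are of RNA, and the phosphorylation that controls pocket proteins was not measured.

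Directions are relative to the deposited scaling, which sets the typical gene close to unchanged. Of all called genes 44.2% were higher as deposited, 51.2% after quantile normalization, 73.6% with total-read scaling and 82.8% with TPM scaling. The median of all tested genes was -0.006 as deposited, 0.12 with total-read scaling and 0.18 with TPM scaling. Total-read scaling gave 7 and TPM scaling 8 of the 10 family genes called higher, and E2F2 lost its call under both. Of all 11945 tested genes, total-read scaling called 4309 higher and TPM scaling 5644. Relative to the shifted median, E2F1 lay at 0.33 under both, RBL1 at 0.32 under both, and E2F2 at -0.19 under total-read scaling and -0.19 under TPM scaling. E2F3 turned positive, at 0.09 and 0.14, without being called.

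**Figure D4:**
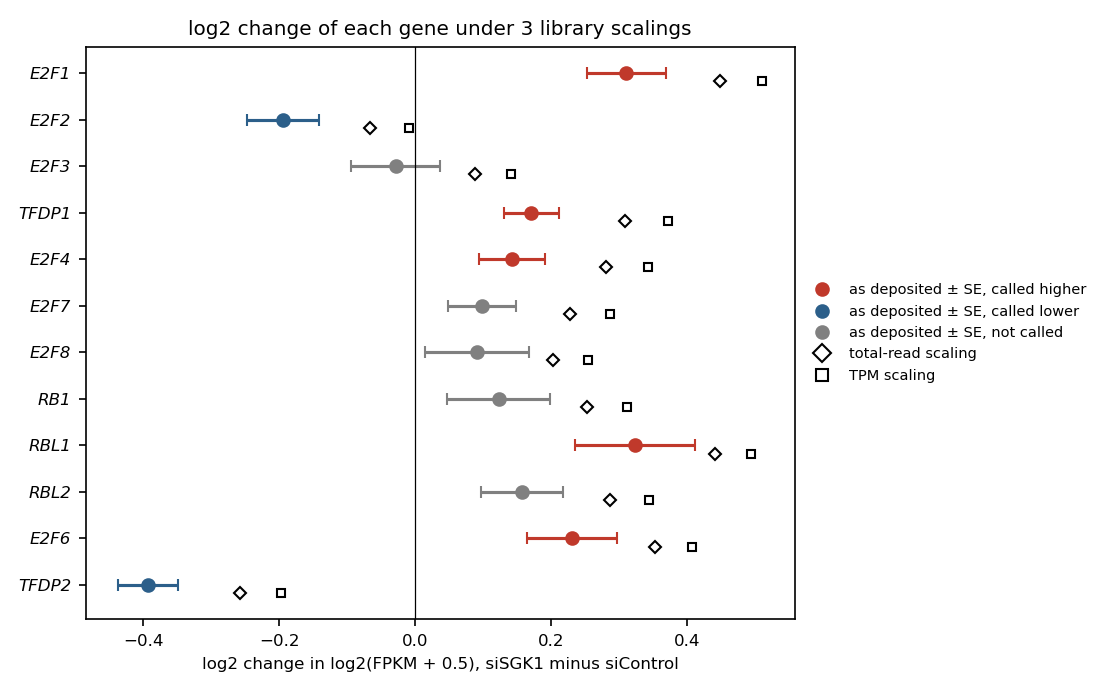
The log2 change of each family gene and of E2F6 and TFDP2 (x axis, siSGK1 minus siControl, log2(FPKM + 0.5) scale). Filled circles are the change as deposited with its SE, red for genes called higher, blue for lower and grey for not called, and open marks give total-read and TPM scaling. Both scalings move every gene to the right, and E2F2 then lies close to 0.

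The genes that control the pocket proteins changed in both directions. Of 17 tested cyclins, kinases, activators and inhibitors, 8 were higher and 4 lower at the threshold, at a median log2 change of 0.14. Beside them, 17.9% of all tested genes were called higher and 22.7% lower. Total-read scaling called 10 of the 17 higher and 2 lower, and TPM scaling 11 higher and 2 lower. CDK6, a kinase that phosphorylates RB1 with D cyclins, averaged 2.97 ± 0.37 FPKM in siSGK1 and 1.47 ± 0.12 FPKM in siControl (log2 change 0.81, adjusted p = 0.000279). Its relative CDK4, named after its values were seen, averaged 83.5 ± 5.7 FPKM in siSGK1 and 89.3 ± 1.3 FPKM in siControl and was not called (adjusted p = 0.186). SKP2, the ubiquitin ligase subunit that targets p27 for destruction, rose to 35.2 ± 2.6 FPKM in siSGK1, against 24.2 ± 0.3 FPKM in siControl. Its cofactor CKS1B rose by a log2 change of 0.35 and the CDK phosphatase CDC25A by 0.48.

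The CDK inhibitors were split. CDKN1A (p21) and CDKN2B (p15) fell by 0.57 and 0.46 on the log2 scale, while CDKN2C (p18) and CDKN2D (p19), named after their values were seen, rose by 0.37 (adjusted p = 0.00233) and 0.41 (adjusted p = 0.000661). CDKN1B (p27) was not called (log2 change 0.14, adjusted p = 0.0960). CDKN2B averaged 10.6 ± 0.4 FPKM in siSGK1 and 14.8 ± 0.5 FPKM in siControl (SD, n = 3 each). CDKN2A, which encodes p16 and is high where RB1 is inactive, was abundant in both groups, at 201.8 ± 12.5 FPKM in siSGK1 and 220.7 ± 8.8 FPKM in siControl, and was not called (adjusted p = 0.103). The next 3 genes were picked after their values were seen. The E cyclins, which activate CDK2, were split: CCNE1 had a log2 change of -0.29 (adjusted p = 0.00569) and CCNE2 of 0.29 (adjusted p = 0.0143). The ratio of CCNE2 to CCNE1 was 0.31 ± 0.02 in siSGK1 and 0.19 ± 0.01 in siControl. The CCNE2 call was lost without siSGK1 replicate 4 (adjusted p = 0.0531) or siControl replicate 3 (adjusted p = 0.0534), and that of CCNE1 with TPM scaling (log2 change -0.10) or total-read scaling (log2 change -0.16). CCND1, the main D cyclin of epithelial cells, had a log2 change of -0.24 (adjusted p = 0.00418), and lost its call with TPM scaling (log2 change -0.04), total-read scaling (log2 change -0.10) and quantile normalization (log2 change -0.13), where adjusted p was between 0.0599 and 0.542.

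Partners of the DREAM complex and its activating counterpart rose in part. The MuvB core, B-MYB and FOXM1 gave 6 tested genes, of which 3 were called higher and the other 3 not called, at a median log2 change of 0.28. Of all tested genes 17.9% were called higher and 22.7% lower. MYBL2, which encodes B-MYB and is itself a classical E2F target, averaged 88.2 ± 6.4 FPKM in siSGK1 and 63.1 ± 3.2 FPKM in siControl (log2 change 0.48, adjusted p = 0.000556). FOXM1, the factor that takes over MuvB in G2, averaged 21.1 ± 1.1 FPKM in siSGK1 and 15.7 ± 0.7 FPKM in siControl. RBBP4, a histone-binding subunit shared with other complexes, rose by a log2 change of 0.43. Of the MuvB subunits named LIN, none that was tested was called: LIN9 (log2 change 0.03), LIN52 (0.14) and LIN54 (0.09), while LIN37 lay below the level filter. LIN52 was called with total-read and TPM scaling (log2 changes 0.27 and 0.33).

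Of 10 chromatin factors that RB1 binds or recruits, 4 were higher and 1 lower at the threshold, at a median log2 change of 0.07. Of all tested genes 17.9% were called higher and 22.7% lower, 40.6% in either direction, so the share of called factors lies near the background. SMARCA4 (BRG1), the motor of a chromatin remodelling complex, averaged 21.1 ± 1.0 FPKM in siSGK1 and 16.6 ± 0.3 FPKM in siControl (log2 change 0.33, adjusted p = 0.000976). RBBP7, SIN3B and HDAC1 rose by 0.19, 0.22 and 0.14 on the log2 scale. The HDAC1 call was lost in each of 5 fits that left out 1 library, all but the one without siSGK1 replicate 3, at adjusted p of up to 0.114, and without a level filter (adjusted p = 0.0527). The histone methyltransferase SUV39H1 was called lower, by a log2 change of -0.27 (adjusted p = 0.0133), a call lost with TPM scaling (log2 change -0.08) and total-read scaling (log2 change -0.14). HDAC2, HDAC3, ARID4A, KDM5A and SMARCA2 were not called.

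Targets of E2F at G1/S rose more often than they fell. In this list of 37 genes, all tested, 20 were higher and 4 lower at the threshold, and the median log2 change was 0.17. Of all tested genes 17.9% were called higher and 22.7% lower. RRM2, a subunit of ribonucleotide reductase, averaged 15.2 ± 0.5 FPKM in siSGK1 and 8.70 ± 0.20 FPKM in siControl (log2 change 0.77, adjusted p = 1.57e-05). The helicase factor CDC45, the GINS subunit GINS1 and the replication factor MCM10 rose by 0.45, 0.41 and 0.46 on the log2 scale. The MCM helicase subunits did not rise with them: MCM5 averaged 32.9 ± 3.1 FPKM in siSGK1 and 43.5 ± 0.4 FPKM in siControl (log2 change -0.40, adjusted p = 0.00178). Among the other MCM2 to MCM7 genes, looked at after their values were seen, MCM2 had a log2 change of -0.22 (adjusted p = 0.0154, 0.0574 without siControl replicate 3, and -0.01 on the log2 scale with TPM scaling). MCM3, MCM4, MCM6 and MCM7 were not called as deposited, though all 4 were called higher with TPM scaling. The remaining falls were CCNE1 and TYMS, thymidylate synthase. The TYMS call (log2 change -0.26, adjusted p = 0.0216) was lost in each fit without 1 library, except the one without siControl replicate 4, at adjusted p of up to 0.0717. It was also lost with TPM scaling (log2 change -0.06), total-read scaling (log2 change -0.13) and without a level filter (adjusted p = 0.091). With TPM scaling 33 genes of the list were called higher and 1 lower, MCM5, beside 5644 higher and 1171 lower of all 11945 tested genes.

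The G2/M targets that MuvB complexes control were more uniform. Among 25 tested genes, 22 were called higher and 3 were not called (CDC25B, CDC25C and KIF20A), and the median log2 change was 0.58. Of all tested genes 17.9% were called higher. CCNA2, the cyclin of S phase and G2, averaged 31.8 ± 0.8 FPKM in siSGK1 and 18.9 ± 1.1 FPKM in siControl (log2 change 0.73). The spindle midzone protein PRC1 rose to 26.0 ± 1.0 FPKM in siSGK1, against 16.6 ± 0.4 FPKM in siControl. AURKB, BIRC5, UBE2C and TPX2 rose by 0.98, 0.98, 0.76 and 0.59 on the log2 scale. In bulk RNA a larger share of cells in a phase and more RNA per cell cannot be told apart. The part of a shifted cell cycle in the changes of these genes, E2F1, MYBL2 and the G1/S genes was not tested.

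E2F words were frequent in promoters of the G1/S list (18 of 31 genes with an entry) and rare in those of the G2/M list (1 of 21), where CHR words were found in 15 of 21 genes. Among tested genes with an entry, 6.93% held an E2F word and 14.8% a CHR word. Over all 584 tested genes with an E2F word, 22.3% were called higher and 16.8% lower, with a median log2 change of 0.04. Among the 7845 without one, 18.3% were called higher and 22.9% lower. With a CHR word, 26.7% of 1245 genes were called higher and 17.4% lower, against 17.2% and 23.3% of 7184 genes without one. Genes are not independent replicates, and these shares describe the lists without a test.

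**Figure D5:**
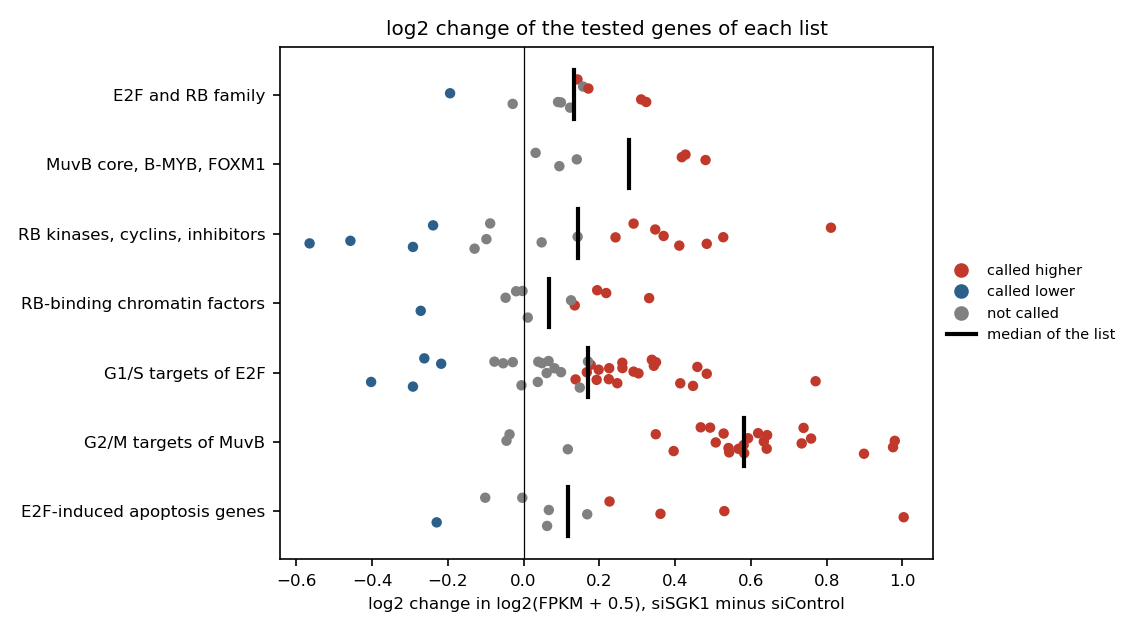
The log2 change (x axis, siSGK1 minus siControl, log2(FPKM + 0.5) scale) of every tested gene in 7 lists, 1 point a gene, spread vertically for legibility. Red points were called higher, blue lower and grey not called, and the black bar is the list's median. The E2F and RB family lies around 0.13, and the G2/M targets around 0.58.

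Genes through which E2F1 can promote apoptosis were mixed. Of 8 such genes described here, all tested, 3 were higher and 1 lower at the threshold, and 4 were not called. This share lies near the 40.6% of all tested genes that were called in either direction (17.9% higher, 22.7% lower). APAF1, the scaffold of the apoptosome, averaged 2.69 ± 0.15 FPKM in siSGK1 and 1.71 ± 0.07 FPKM in siControl (log2 change 0.53). The initiator caspase CASP8 had a log2 change of 0.36, which was not called without siSGK1 replicate 3 (adjusted p = 0.0504) or without a level filter (adjusted p = 0.0810). The kinase gene MAP3K5 (0.23) and the BH3-only gene BCL2L11 (-0.23) were called less firmly. MAP3K5 was not called without siSGK1 replicate 2 or 3 or siControl replicate 2 or 3 (adjusted p of up to 0.124), and BCL2L11 in each such fit except the one without siControl replicate 4 (adjusted p of up to 0.121). BCL2L11 also lost its call with TPM scaling (log2 change -0.07, adjusted p = 0.472) and total-read scaling (log2 change -0.12, adjusted p = 0.235), and both genes did without a level filter. TP73, the p53 relative that E2F1 induces, was not called (log2 change 0.06, adjusted p = 0.474), nor were BBC3, PMAIP1 and SIVA1. With TPM and total-read scaling TP73 (log2 changes 0.25 and 0.19), PMAIP1 (0.36 and 0.30) and SIVA1 (0.27 and 0.21) were called higher. PMAIP1 was also called with limma-voom and without siControl replicate 3, and SIVA1 with quantile normalization and without siSGK1 replicate 3. BBC3 was called in no alternative setting.

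As deposited, RBL1 had the largest called change in the family by a narrow margin, and E2F1 was ahead with TPM, total-read and quantile scaling. By the rule for likeness, the RBL1 profile over the 6 libraries was compared with those of 10273 tested protein-coding genes outside the lists. The measure was the root mean square distance between centred log2(FPKM + 0.5) values. PDE8A, a phosphodiesterase of cyclic AMP, was nearest at 0.028 log2 units, followed by MACC1 (0.032), known for its link to colon cancer metastasis, and SMARCE1 (0.034), a subunit of the remodelling complex that SMARCA4 drives. PDE8A measured 2.90, 3.28 and 2.94 FPKM in siSGK1, against 2.11 to 2.70 FPKM in siControl. As in RBL1, replicate 3 was highest among its siSGK1 libraries and replicate 4 among its siControl libraries. PDE8A was picked for its closeness over these same 6 libraries, so the shared order is no separate result.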

How the data were processed

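PolyA RNA was sequenced from 6 ME180 cultures, 3 per group. The authors deposited FPKM per gene and library. Per the submitters' processing notes, bcl2fastq 2.19, HISAT2 2.0.5 and featureCounts 1.5.0-p3 were used with build hg19. Whether counting used strand is not given in the sources used here. Gene positions in the table match GENCODE 29 (GRCh38) for 97.4% of 58084 shared identifiers, so they are read as GRCh38. The match was not counted separately for the family genes.

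Deposited FPKM times gene length was a whole multiple of 1 step for 100% of values above 0 (tolerance 0.001), which gave the recovered reads. The step puts library sizes at 0.952 to 1.09 times the total reads. No replicate pair agreed within counting noise (chi-square per degree of freedom 3.14 to 7.6).

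The test was limma 3.58.1 (R 4.3.3; empirical Bayes with trend, two-sided) on log2(FPKM + 0.5), siSGK1 minus siControl, over 11945 genes with a mean of at least 1 FPKM, with Benjamini-Hochberg adjustment. The pseudocount makes fold changes of low genes too small. The fit was tested on simulated data. Alternatives were pseudocounts of 0.1 and 1, no filter, a mean of at least 5 FPKM, TPM, total-read and quantile scaling, limma-voom on recovered reads, a replicate block and leaving out each library. Summaries used Python 3.11.15, numpy 2.4.6, pandas 2.3.3 and scipy 1.17.1, and figures matplotlib 3.10.9.

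The family genes and lists were chosen with earlier results of these data known. Named are the family, its relatives, SGK1, all genes of lists of up to 10, and the 6 genes with the smallest p of longer lists. Of the apoptosis list, 2 genes are not reported here. Other genes named were chosen after their values were seen. A gene in 2 lists counts in both. Nothing in the labels says what the biological repeats were separated by, so p-values measure the spread between these libraries.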

Additional observations from a re-analysis of the deposited data

How the results depend on the processing

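Across 15 alternative settings E2F1 and TFDP1 kept their direction and their calls, and TFDP2 did too. The count of family genes called higher, 4 as reported, was 2 without a level filter, 8 with TPM scaling and 7 with total-read scaling, and 2 to 4 when 1 library was left out. The count called lower, 1 as reported, was 0 with a mean FPKM of at least 5 (E2F2 is then not tested), 0 with TPM scaling, 0 with total-read scaling and 0 to 1 without 1 library. Genes of the 7 other pathway lists called lower numbered 10 as reported and 4 with TPM or total-read scaling. Among all genes, 2143 were called higher as reported, 1282 with a mean FPKM of at least 5 (fewer genes tested), 5644 with TPM scaling and 4309 with total-read scaling. The count called lower was 2709 as reported, 1171 with TPM scaling and 1546 with total-read scaling.

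With TPM scaling the log2 change of E2F2 was -0.0089 (call lost), and E2F7 (0.29), E2F8 (0.25), RB1 (0.31) and RBL2 (0.34) gained a call. With total-read scaling E2F2 was at -0.067 (call lost), and E2F7 (0.23), RB1 (0.25) and RBL2 (0.29) gained a call. E2F3, -0.03 as reported, was 0.14 with TPM scaling, 0.089 with total-read scaling and 0.014 without siControl replicate 4, not called in any. RBL2 gained a call with limma-voom on recovered reads (0.18). Without a level filter E2F4 (0.14) and RBL1 (0.32) lost their calls, as did E2F6 (0.23) outside the family list. Leaving out 1 library gave -0.21 to -0.17 for E2F2, -0.053 to 0.014 for E2F3, 0.12 to 0.18 for E2F4, 0.26 to 0.40 for RBL1, 0.06 to 0.18 for RB1, 0.06 to 0.15 for E2F8 and 0.12 to 0.20 for RBL2. Replicate numbers did not pair the samples (correlations of same-numbered deviations 0.12, 0.01 and -0.10). The replicate block ended the calls of E2F4 (0.14, adjusted p = 0.0828), HDAC1 (adjusted p = 0.0829) and BCL2L11 (adjusted p = 0.0638) and left 3 family genes called higher and 1 lower. The cause of each shift was not tested. E2F3, E2F8 and RBL1, with 194 to 611 reads a library, are the family genes whose precision depth limits most.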
